A study of Homo sapiens with 6 samples.

Results

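The cadherins and protocadherins of U251 cells were examined as 1 family of cell adhesion genes. Members were the protein-coding genes named CDH or PCDH followed by a number, and the clustered protocadherins named PCDHA, PCDHB and PCDHG. The rule found 89 genes among the 58735 genes of the table, of which 19951 were protein-coding. It used gene names alone and no expression value. U251 is an established human glioblastoma line. The NC group (n = 3) had received sterile deionized water, and the TNF-α group (n = 3) had received recombinant human tumor necrosis factor-α, an inflammatory cytokine, at 10 ng/mL for 24 h. The labels name no other agent, transgene or deletion, and call the 3 libraries of each group independent biological replicates. The study asked how a low dose of this cytokine changes the behaviour of glioblastoma cells, migration and invasion included. All 6 libraries came from a single line, so each result is a result for U251 cultures.

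Cadherins are calcium-dependent adhesion proteins whose extracellular repeats bind the same or a related cadherin on the neighbouring cell. Classical cadherins of type I and type II bind catenins with their cytoplasmic tails and through them reach the actin cytoskeleton. Protocadherins share the extracellular repeats but lack the catenin-binding tail. The delta protocadherins are single genes spread over the genome. The clustered protocadherins lie in 3 neighbouring arrays on the long arm of chromosome 5, called alpha, beta and gamma. Each alpha and gamma gene joins its own large first exon to exons at the end of the array that all its members share, whereas each beta gene has an exon of its own. Neurons and glia each use a few of these genes, chosen by promoter. In gliomas, N-cadherin (CDH2) is the abundant classical cadherin, and E-cadherin (CDH1) belongs to epithelia.

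TNF-α replicates 2 and 3 stood apart from the other 4 libraries. Genes with over 8 kb of exonic length held 16.6% and 17.9% of their reads, against 28.8% to 29.1% in NC and in TNF-α replicate 1. Ribosomal protein genes held 7.30% and 6.26%, against 2.62% to 2.90%. Values are therefore given by replicate, and tests with and without these libraries. Depth was similar, at 31992167 to 37897044 reads in genes. The glial markers VIM, CD44, NES and SOX2 had an FPKM of at least 22.6 in every library. GFAP had 7.10 to 9.47 in NC and 1.58 to 2.60 with TNF-α. S100B did not exceed 0.168. Markers of other cell types were mixed, and their part in the results was not tested. The summed FPKM of 5 epithelial markers was 11.8 to 14.1 in NC and 9.18 to 34.0 with TNF-α, mostly from KRT18 (10.94 to 12.98 in NC, and 8.73, 32.6 and 24.7 with TNF-α), whereas EPCAM did not exceed 0.0494. For 4 neuronal markers it was 11.7 to 12.5 and 6.23 to 12.6, with MAP2 the highest at 4.05 to 8.07. For 4 immune markers it was 0.66 to 0.825 and 0.528 to 1.58, nearly all from CD14, while PTPRC and CD3E had no read. For 4 endothelial markers it was 6.21 to 6.80 and 2.16 to 5.98, nearly all from KDR. Levels are in FPKM, fragments per kilobase of exon scaled to a library total, which can be compared between genes. Where a gene had too few reads, reads or CPM are given instead. CPM are reads scaled to all reads in genes of the library, and they do not correct for length. The total inside the FPKM was 0.925 to 0.959 of the reads in genes in 4 libraries, and 0.693 and 0.759 in TNF-α replicates 2 and 3, so that ratios to NC are lower in CPM than in FPKM for these 2.

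The promoters of the clustered genes were examined first, because they carry the element by which these arrays are known. Most clustered protocadherin promoters hold a short conserved element with CGCT at its core, and the insulator protein CTCF binds at many of them. RefSeq (GRCh38.p14) start sites were found for 70 of the 89 members. Of these, 53 had their first 20 transcribed bases in a GENCODE 29 transcript of the gene, read along the gene, and 0 had them on the opposite strand. CGCT on the gene's own strand, between 90 and 30 bases before the start, was found in 12 of 13 alpha promoters (92.3%), 12 of 14 beta promoters (85.7%) and 18 of 20 gamma promoters (90%). It was found in 18.4% of all 27305 promoters, in 5 of 12 cadherin promoters and in 2 of 11 promoters of other protocadherins. This window was chosen after the sequences had been seen. The windows below, 30 bases with CGCT in capitals, are those of the most highly expressed members of each cluster and of PCDHB10. Those of PCDHAC2, PCDHB16 and PCDHB14 lie inside the GENCODE genes, which start at 140966235, 141181399 and 141222932. All the windows lie on the + strand of chromosome 5.
PCDHA1: ggccacatgatgtCGCTgtacaccacaaag
PCDHA7: ggccacatgatgtCGCTctttaccgcaaat
PCDHAC2: tgagccctcctacCGCTccctttccccctc
PCDHB9: agccacaaggtggCGCTgcagactgaagag
PCDHB16: gaacgcgtggtggCGCTgcaggttaagatg
PCDHB14: agacacatggtggCGCTacaggataagacg
PCDHB10: ggccacacggtggCGCTgcaggctaaagag
PCDHGC3: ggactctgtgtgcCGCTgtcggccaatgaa
PCDHGA9: ggactctgagcgcCGCTgttgatcaactct

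In order, these windows are chr5:140786089-140786118, chr5:140834175-140834204, chr5:140966422-140966451, chr5:141187077-141187106, chr5:141182313-141182342, chr5:141223266-141223295, chr5:141192302-141192331, chr5:141475883-141475912 and chr5:141402717-141402746. The bases beside the core differed between clusters. The word of 8 bases shared by most alpha promoters was ATGTCGCT, in 9 of 13, against 0.117% of all promoters. The beta word was GTGGCGCT, in 12 of 14, against 0.513%, and the gamma word was GCCGCTGT, in 11 of 20, against 0.626%. Some genes counted for CGCT in the window did not hold their cluster's word there, among them PCDHAC2 (CTACCGCT) and PCDHB1 (GAGTCGCT). CGCT alone does not identify the conserved element. These words were searched on the gene's own strand over 250 bases. Each was picked as the word found in the most promoters of its own cluster. Ties were broken by the fewest matches over all promoters. The contrast with all promoters therefore follows in part from this choice and is not a test. PCDHGB2, the second most abundant gamma gene, had no CGCT in the window. Farther from the start, its 250 bases did hold GCGTCGCT, the same 8 bases as in the windows of PCDHGA2 and PCDHGA6. The RefSeq start used for PCDHGB2 lies 94 bases inside the GENCODE gene. GGNNTTTCC, a shortened NF-kB form searched on both strands and settled on after the sequences had been seen, was found in 5.48% of all promoters and in 3 of 70 members, PCDHA4, PCDHAC1 and PCDH12. Such matches describe letters in a window and not binding.

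In NC cells the family was dominated by a few genes. CDH4 (R-cadherin), a classical cadherin of brain and retina, was the highest at 55.1 ± 3.04 FPKM (SD, n = 3). CDH2 followed at 30.99 ± 0.95 FPKM, the gamma protocadherin PCDHGC3 at 19.8 ± 0.485 FPKM, and CDH13 (T-cadherin), which is anchored to the membrane by lipid and has no cytoplasmic tail, at 15.5 ± 0.768 FPKM. These 4 genes made up 64.8% to 66.2% of the summed FPKM of the family in NC. PCDH17 came next at 8.79 ± 0.322 FPKM. CDH24, PCDH7 and CDH11 followed at 6.94, 6.89 and 5.97 FPKM, and each neighbour in this order overlapped the next. PCDH10 (5.56 FPKM), CDH10 (4.53 FPKM) and PCDHGB2 (2.82 FPKM) each lay above the next gene in all 3 libraries. From PCDHB14 to PCDHB2, 4 beta genes lay between 1.66 and 1.71 FPKM and could not be ordered. Alpha and gamma genes share exons, which count in this length but may hold few of a gene's reads. A second level divided all reads of a gene by its exon length shared with no other gene on either strand. On it, PCDHGC3 was at 33.1 ± 0.811 FPKM in NC, beside 31.9 ± 0.976 for CDH2 with overlapping libraries. PCDHGB2 was at 5.20, beside 4.53 for CDH10. How many of these reads lay in shared exon was not determined. The places of these gamma genes in the order thus depend on the length used.

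**Figure D1:**
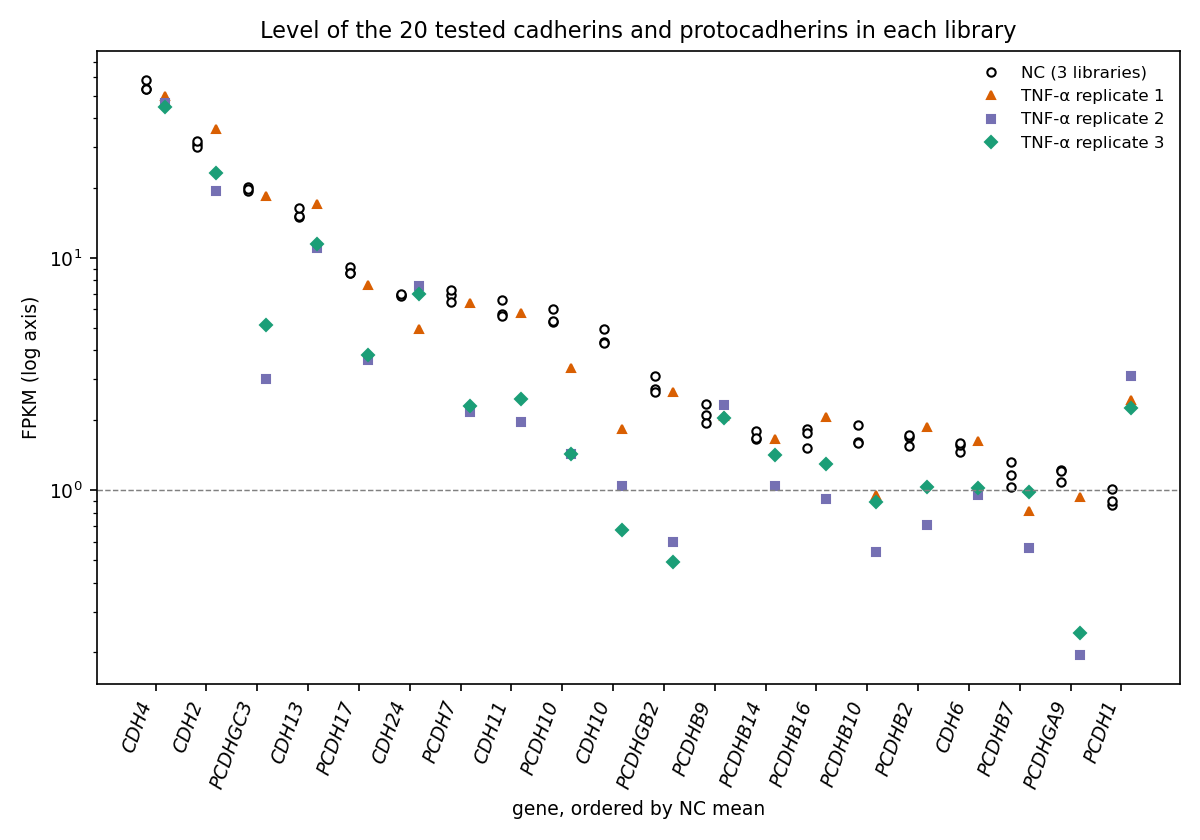
FPKM on a log axis of the 20 tested members in each of the 6 libraries, with open circles for NC and filled symbols for TNF-α replicates 1 to 3. CDH4 was highest in every library, and PCDH1 is the gene whose TNF-α points all lie well above its NC points.

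Most members were low or silent. Testing required 3 libraries with an FPKM of 1 or more, and 20 of the 89 members met this. Of these, 11 did so in all 6 libraries, 8 in the 3 NC but not in the 3 TNF-α libraries, and 1, PCDH1, in the 3 TNF-α but not in the 3 NC libraries. The last 9 passed through the group in which they were higher, so the tested members are a selected part of the family. No read was found for 13 members in any library, 11 had 1 to 9 reads in all, and 45 had 10 or more without passing. By class, 2 of 5 type I, 4 of 13 type II and 1 of 5 atypical cadherins passed. Among protocadherins, 2 of 5 delta1, 2 of 5 delta2, 0 of 3 other single genes, 0 of 15 alpha, 6 of 16 beta and 3 of 22 gamma genes passed. Every gamma gene had 10 or more reads, whereas 11 of 15 alpha genes had fewer.

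After TNF-α, 1 tested member rose and 1 fell. PCDH1, a delta1 protocadherin of epithelial and other tissues, rose, and CDH10, a type II cadherin of the nervous system, fell. These are 2 of 20 tested members, and 1.01% of the 12136 genes tested were called (limma on log2(FPKM + 1), Benjamini-Hochberg adjusted p under 0.05), 0.717% as higher and 0.297% as lower. Both come from the 9 members that passed the filter through the group in which they were higher, and neither is among the 11 that passed in all 6 libraries. Both calls lay close to the threshold and were lost in most alternatives, as described for each gene. When every gene above 0 was tested, the adjusted p was 0.157 for PCDH1 and 0.138 for CDH10 (limma). Of the 11 members that passed in all 6 libraries, the groups did not overlap for 5, all lower with TNF-α. Over the 10347 genes that passed in all 6 libraries, 13.5% were lower without overlap and 15.8% were higher. The log2 fold change was above 0 for 1 of the 11 members, PCDHB9, and for 5902 of these 10347 genes, and its median was -0.28 over the 11 members and 0.10 over these genes. In bulk RNA, fewer cells that express a gene and less RNA of it per cell cannot be told apart. P-values measure the spread between the replicates as labelled.

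**Figure D2:**
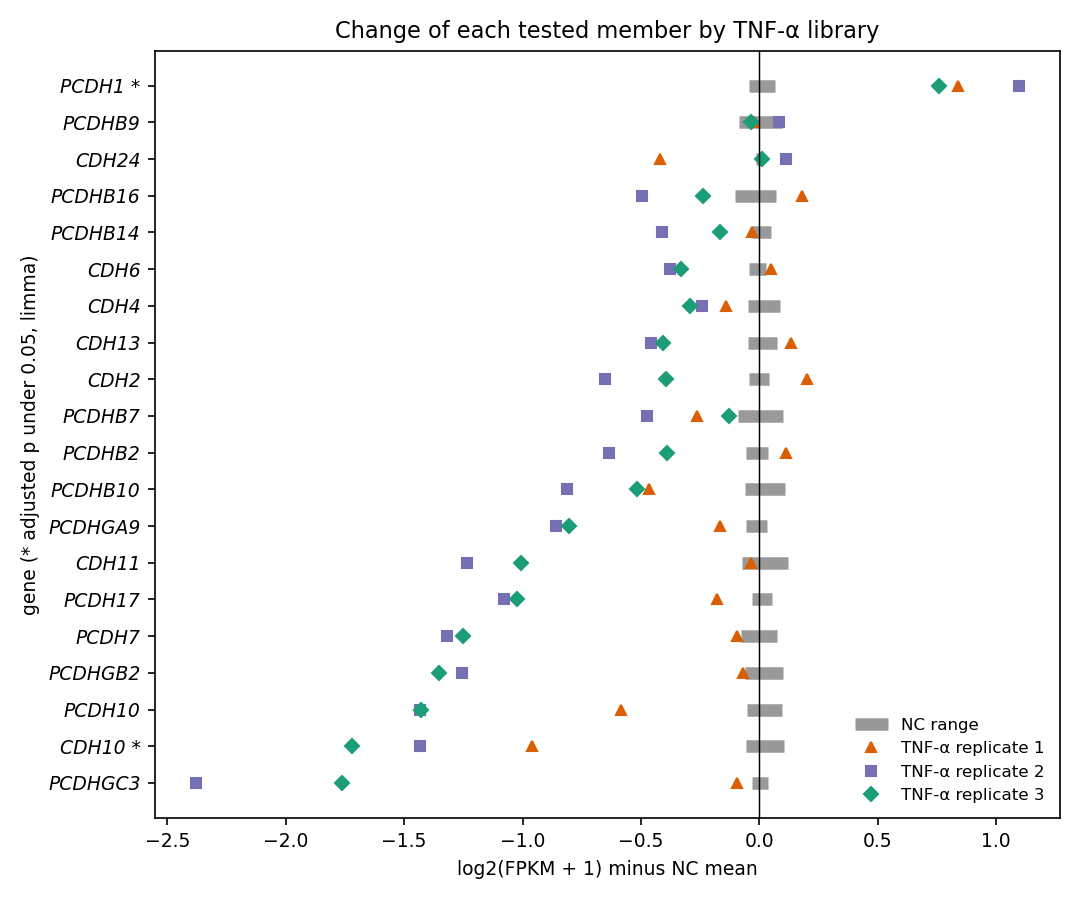
Difference of log2(FPKM + 1) from the NC mean for each tested member and TNF-α library, with the NC range as a grey bar and an asterisk for adjusted p under 0.05 in limma. Replicates 2 and 3 lie far to the left of replicate 1 for PCDHGC3, PCDHGB2, PCDH7, PCDH17 and CDH11, whereas PCDH1 and CDH10 are displaced in all 3.

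Summed over the family, FPKM came to 183, 181 and 191 in the NC libraries, and to 176, 112 and 118 in TNF-α replicates 1, 2 and 3. Members held 0.123% to 0.127% of all reads in NC and 0.116%, 0.0546% and 0.0626% in the TNF-α libraries. TNF-α replicate 1 was thus close to NC, and replicates 2 and 3 were low. Of the 41 members with at least 60 reads over the 3 NC libraries together, a choice made on the NC level, 31, 39 and 39 had a lower CPM than the NC mean in TNF-α replicates 1, 2 and 3. The median ratios to NC were 0.902, 0.26 and 0.378. These counts and ratios were not computed over all genes with as many reads. They do not show whether the family differed from other genes. Of these 41, PCDH1 and CDH5 were above the NC mean in all 3 TNF-α libraries.

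Of the type I cadherins, CDH4 and CDH2 were the only ones at substantial levels. CDH4 (ENSG00000179242) had 53.3, 53.5 and 58.7 FPKM in NC, and 49.9, 46.5 and 44.8 FPKM with TNF-α, always in the order of replicates 1 to 3. The groups did not overlap, and the TNF-α mean was 0.853 of the NC mean. This difference did not pass the test (log2 fold change -0.22 ± 0.13, SE, adjusted p = 0.24, limma). Its size depended on the scaling, with -0.73 for TPM, where the median of all genes tested was -0.42, -0.63 after quantile normalization and -0.06 with the length correction, and none of these passed. CDH2 (ENSG00000170558) had 30.99, 30.04 and 31.9 FPKM in NC, and 35.8, 19.4 and 23.3 FPKM with TNF-α. Replicate 1 was above and replicates 2 and 3 were below every NC library. The change was -0.28 ± 0.23 on the log2 scale (adjusted p = 0.366, limma), with a 95% interval from -0.85 to 0.29, and it was 0.20 without replicates 2 and 3. The level of CDH4 relative to CDH2 was 1.72 to 1.84 in NC and 1.39, 2.40 and 1.92 with TNF-α. CDH1 had 0, 0 and 2 reads in NC and 0, 0 and 2 reads with TNF-α, and 3 reads of it would amount to an FPKM of 0.0134 to 0.02. No difference in CDH1 was detectable at this depth. Such floors cover counting error only. CDH3 (P-cadherin) and CDH15 (M-cadherin) had 89 and 35 reads in all 6 libraries.

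CDH10 (ENSG00000040731), on the - strand of GRCh38 at chr5:24487100-24644978, was the member that fell. It had 4.92, 4.35 and 4.30 FPKM in NC and 1.84, 1.04 and 0.675 FPKM with TNF-α, from 651, 522, 506, 216, 99 and 60 reads. Every TNF-α library was below every NC library, replicate 1 included. The TNF-α mean was 0.262 of the NC mean, and the log2 fold change on the FPKM + 1 scale was -1.37 ± 0.21 (SE, adjusted p = 0.0498, limma). With replicate 1 as the only TNF-α library it was -0.96 ± 0.10 (adjusted p = 0.00474, limma). That fit assumes that the lone library varies as the NC libraries do. The call was lost when any single NC library was left out (adjusted p 0.285 to 0.321), when TNF-α replicate 2 or 3 was left out (0.195 and 0.204), and in limma-voom on reads (log2 fold change -2.04, adjusted p = 0.064). The direction was the same in all 20 alternatives. The 250 bases before its RefSeq start, on the - strand at chr5:24644979-24645228, are shown because the gene was called. The NF-kB and E-box letters searched were not in them.
CDH10: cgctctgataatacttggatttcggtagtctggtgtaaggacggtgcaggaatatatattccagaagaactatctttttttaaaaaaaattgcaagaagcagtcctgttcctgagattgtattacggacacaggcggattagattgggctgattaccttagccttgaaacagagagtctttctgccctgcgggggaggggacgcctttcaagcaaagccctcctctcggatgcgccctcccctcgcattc

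The other type II cadherins did not pass the test over all libraries. CDH11, a cadherin of mesenchymal cells, had 5.74, 5.61 and 6.56 FPKM in NC and 5.79, 1.96 and 2.46 FPKM with TNF-α. Replicate 1 lay within the NC range and replicates 2 and 3 far below it (log2 fold change -0.76 ± 0.32, adjusted p = 0.195, limma). CDH24 showed the opposite arrangement, with 6.94, 6.87 and 7.01 FPKM in NC and 4.94, 7.58 and 6.99 FPKM with TNF-α. Here replicate 1 alone was low. Its log2 fold change was -0.10 ± 0.17 over all libraries (adjusted p = 0.649, limma), -0.42 with replicate 1 alone (adjusted p = 0.0302) and 0.06 without replicate 1. Other settings gave -0.59 (TPM), -0.34 (corrected for length) and -0.70 (corrected for GC content and length, adjusted p = 0.0662, limma), none of which passed. CDH6 had 1.47, 1.57 and 1.59 FPKM in NC and 1.63, 0.957 and 1.02 FPKM with TNF-α, and its groups overlapped.

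CDH5 (VE-cadherin), the cadherin of endothelial junctions, had 18, 26 and 28 reads in NC and 44, 30 and 49 reads with TNF-α, which is 0.0819 to 0.143 FPKM and 0.19 to 0.332 FPKM. In CPM the groups overlapped, with 0.475, 0.76 and 0.806 in NC and 1.27, 0.802 and 1.53 with TNF-α. Of the other endothelial markers, PECAM1 and VWF did not exceed 0.025 FPKM in any library, and KDR had 6.08 to 6.64 FPKM in NC and 5.74, 1.95 and 2.00 FPKM with TNF-α. CDH8, a type II cadherin named after its values were seen, had 14, 15 and 19 reads in NC and 8, 0 and 0 with TNF-α. The atypical CDH13 had 15.0, 15.2 and 16.4 FPKM in NC and 17.1, 11.0 and 11.4 FPKM with TNF-α, so that replicate 1 lay above and replicates 2 and 3 below NC, as for CDH2. The change was -0.24 ± 0.19 on the log2 scale (adjusted p = 0.337, limma).

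PCDH1 (ENSG00000156453), on the - strand of GRCh38 at chr5:141853111-141879246, was the member that rose. It had 0.863, 0.894 and 1.01 FPKM in NC and 2.44, 3.10 and 2.25 FPKM with TNF-α, from 184, 173, 192, 462, 475 and 323 reads. Every TNF-α library was above every NC library, and the lowest of them had more than the highest NC library in reads too. The TNF-α mean was 2.81 times the NC mean. The change was 0.90 ± 0.14 on the log2 scale (SE, adjusted p = 0.0485, limma), and 0.84 ± 0.13 with replicate 1 as the only TNF-α library (adjusted p = 0.0196, limma). In limma-voom on reads it was 1.46 ± 0.20 (adjusted p = 0.032), where 52 members were tested, PCDH1 was the only one called, and 0.751% of 16638 genes were called. The call was lost when any single NC library was left out (adjusted p 0.278 to 0.362), when TNF-α replicate 2 or 3 was left out (0.14 and 0.185), and after a correction for GC content and gene length (log2 fold change 0.63, adjusted p = 0.087). The direction was the same in all 20 alternatives.

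The 250 bases before the RefSeq start of PCDH1, on the - strand at chr5:141869628-141869877, are shown because the gene was called. This start lies 9619 bases inside the GENCODE gene, so that it is not the outermost start. The capitals mark CAGGTG, an E-box form bound by the Snail and ZEB repressors of CDH1, 81 to 76 bases before the start. These letters, on either strand, were found in 17.5% of all promoters and in 7 of 70 members. The NF-kB letters were not found.
PCDH1: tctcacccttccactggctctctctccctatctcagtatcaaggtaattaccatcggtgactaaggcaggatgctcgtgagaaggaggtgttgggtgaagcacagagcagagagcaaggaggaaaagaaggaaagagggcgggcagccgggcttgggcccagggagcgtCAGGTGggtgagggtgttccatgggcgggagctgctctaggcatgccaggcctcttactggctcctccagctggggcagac

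The other delta protocadherins with reads were lower in TNF-α replicates 2 and 3, and less so or not in replicate 1. PCDH7, a delta1 protocadherin, had 6.90, 6.47 and 7.30 FPKM in NC and 6.38, 2.16 and 2.31 FPKM with TNF-α. This difference did not pass (log2 fold change -0.89 ± 0.34, adjusted p = 0.195, limma). The ratio of PCDH1 to PCDH7 in FPKM was 0.125 to 0.139 in NC and 0.381, 1.44 and 0.977 with TNF-α. These 2 members of the same subfamily thus differed in direction within every TNF-α library, and the difference was not tested. PCDH9, with 0.343 to 0.418 FPKM in NC and 0.359, 0.0985 and 0.104 FPKM with TNF-α, followed the arrangement of PCDH7 and was below the filter.

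PCDH10 and PCDH17 are delta2 protocadherins, which bind the actin-regulating WAVE complex with their tails. PCDH10 (ENSG00000138650) had 6.01, 5.31 and 5.36 FPKM in NC and 3.37, 1.43 and 1.43 FPKM with TNF-α. All 3 TNF-α libraries were below NC, and replicate 1 lay between the others and NC. On the log2 scale the change was -1.15 ± 0.25 (adjusted p = 0.132, limma), -0.58 with replicate 1 alone (adjusted p = 0.0217) and -0.73 after the GC and length correction (adjusted p = 0.0289). PCDH17 had 9.16, 8.64 and 8.57 FPKM in NC and 7.64, 3.64 and 3.82 FPKM with TNF-α (log2 fold change -0.76 ± 0.26, adjusted p = 0.195, limma). PCDH18, below the filter and named after its values were seen, had 143, 78 and 90 reads in NC and 36, 8 and 7 reads with TNF-α. Its CPM did not overlap, and the TNF-α mean was 0.17 of the NC mean. PCDH8 and PCDH11X had no read.

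PCDH12, a protocadherin of endothelium and placenta that was below the filter and named after its values were seen, was higher in reads. It had 16, 23 and 11 reads in NC and 41, 64 and 43 reads with TNF-α, and its CPM did not overlap, with a ratio of 3.001 between the means. PCDH12 and PCDH1 are neighbours on chromosome 5, with 64.3 kb between them. PCDH1 lies 340.1 kb beyond the end of the gamma cluster.

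The clustered protocadherins were used very unequally. The gamma cluster, at chr5:141330571-141512981, had 146.5, 148.4 and 144.6 CPM in NC and 132, 19.9 and 32.3 with TNF-α. The beta cluster, at chr5:141051135-141249365, had 44.8, 47.1 and 45.3 in NC and 42.2, 19.3 and 26.7 with TNF-α. The alpha cluster, at chr5:140786136-141012347, had 23, 30 and 40 reads in all in NC and 34, 6 and 12 reads with TNF-α. The gamma and beta arrays were thus near the NC level in TNF-α replicate 1 and far below it in replicates 2 and 3. The alpha sums were also lower in replicates 2 and 3, but they rest on few reads. In summed FPKM they were 0.0403 and 0.0785 there, against 0.101 to 0.208 in NC. In summed FPKM the TNF-α mean was 0.454 of the NC mean for gamma, 0.729 for beta and 0.606 for alpha. With replicate 1 alone these ratios were 0.919, 0.916 and 1.02. All reads were also divided by the unshared exon length only. The sums in NC were then larger, at 48.7 to 49.9 FPKM for gamma instead of 28.5 to 29.1. For alpha they were 0.211 to 0.453 instead of 0.101 to 0.208. The ratios of the means were then 0.452 for gamma, 0.735 for beta and 0.612 for alpha.

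**Figure D3:**
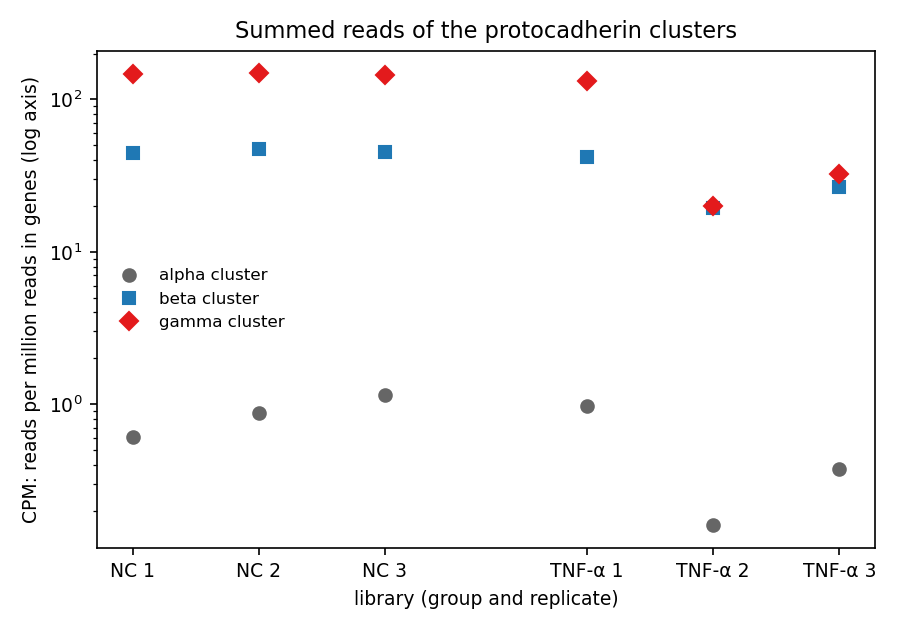
Summed CPM of the alpha, beta and gamma protocadherin clusters in each library, on a log axis. The gamma cluster lies above the beta cluster by about the same distance in NC and TNF-α replicate 1, and the distance nearly vanishes in TNF-α replicate 2 (19.9 against 19.3).

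PCDHGC3, one of the 3 C-type genes at the end of the gamma array, held 68.3% to 71.2% of the gamma reads in NC and 70.2%, 56.6% and 65.3% with TNF-α. It had 19.3, 20.3 and 19.7 FPKM in NC and 18.4, 2.997 and 5.12 FPKM with TNF-α (ENSG00000240184). Replicate 1 was just below the lowest NC library, and replicates 2 and 3 were several times lower. The log2 fold change was -1.41 ± 0.55 (adjusted p = 0.195, limma), and -0.10 with replicate 1 alone. PCDHGB2 had 2.72, 2.65 and 3.09 FPKM in NC and 2.64, 0.599 and 0.492 FPKM with TNF-α. PCDHGA9 had 1.22, 1.09 and 1.21 FPKM in NC and 0.931, 0.195 and 0.243 FPKM with TNF-α. In all 3 tested gamma genes, replicate 1 was the TNF-α library nearest to NC. Of 14 gamma genes with at least 60 NC reads, all 14 were below the NC mean in CPM in replicates 2 and 3, and 13 in replicate 1. The median ratios were 0.861, 0.127 and 0.233 in replicates 1 to 3. The same share over all genes was not computed.

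The beta genes were more varied. PCDHB9, the highest in FPKM, had 2.11, 1.95 and 2.35 FPKM in NC and 2.09, 2.32 and 2.05 FPKM with TNF-α. Its log2 fold change was 0.01 ± 0.12, with a 95% interval from -0.27 to 0.29, and its sign depended on the scaling: it was 0.13 after quantile normalization, -0.13 with the length correction and -0.43 with TPM. In CPM its ratios to the NC mean were 0.957, 0.795 and 0.772. PCDHB10, its neighbour, had 1.62, 1.91 and 1.59 FPKM in NC and 0.955, 0.539 and 0.889 FPKM with TNF-α, so that all 3 TNF-α libraries were low (log2 fold change -0.60 ± 0.14, adjusted p = 0.157, limma). Both hold GTGGCGCT in the windows shown above. PCDHB7 had 1.16, 1.04 and 1.32 FPKM in NC and 0.81, 0.564 and 0.984 FPKM with TNF-α, also without overlap. PCDHB2, PCDHB14 and PCDHB16 overlapped between groups, with 1.52 to 1.84 FPKM in NC and 0.711 to 2.07 FPKM with TNF-α. The ratio of PCDHGC3 to PCDHB9 in FPKM was 8.4 to 10.4 in NC and 8.84, 1.29 and 2.49 with TNF-α.

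**Figure D4:**
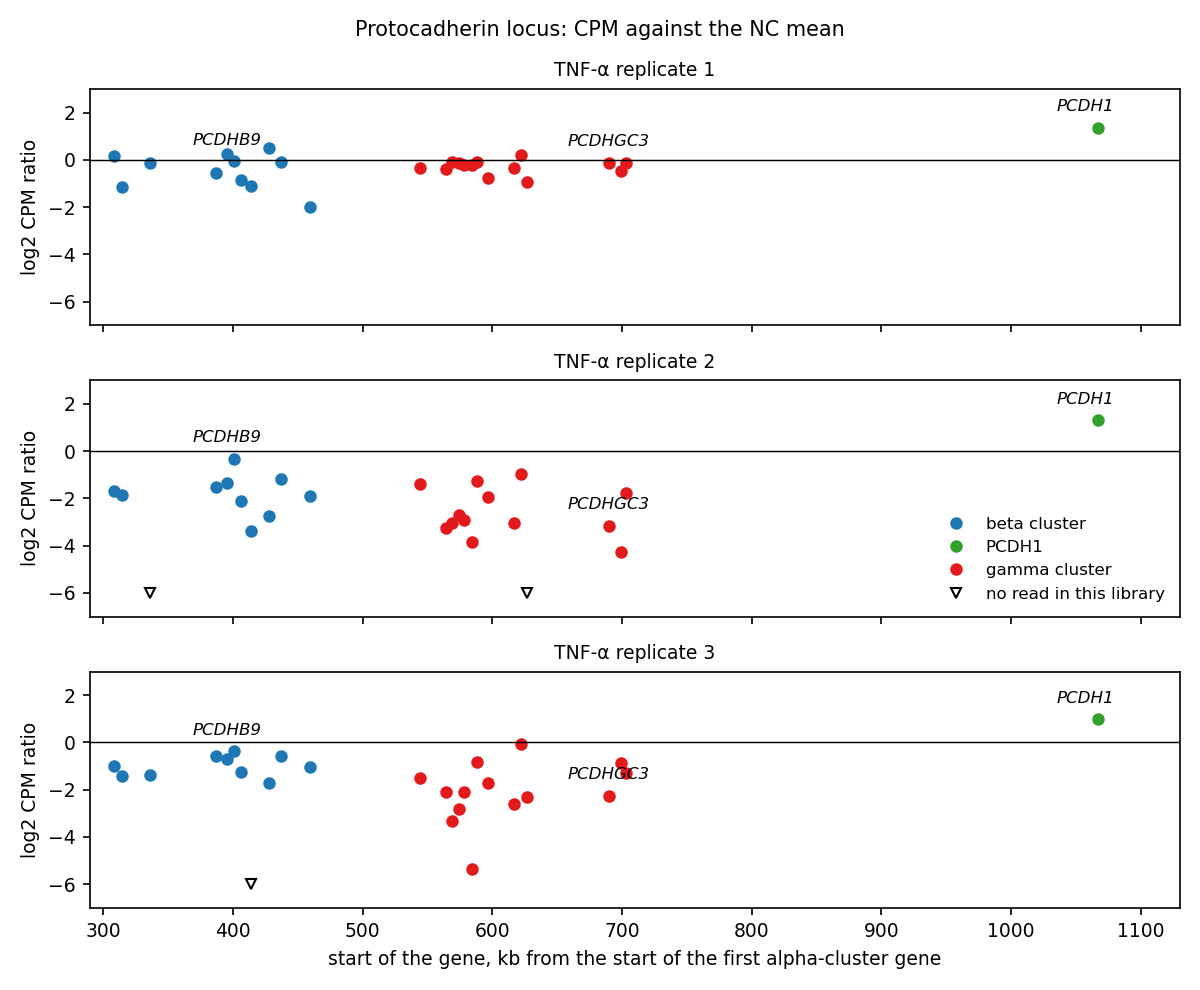
Log2 ratio of CPM to the NC mean, per TNF-α library, for 14 gamma genes, 11 beta genes and PCDH1, each with at least 60 reads over the NC libraries, against the start of the gene in kb from the first alpha gene. No alpha gene reached 60 reads. In replicates 2 and 3 all of these beta and gamma genes lie below 0, PCDHB9 among the nearest to it, and PCDH1 lies above 0 in all 3.

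Of the alpha genes, PCDHA1, PCDHAC2 and PCDHA7 had the highest mean FPKM. PCDHA1 had 5, 4 and 18 reads in NC and 6, 4 and 8 with TNF-α. PCDHAC2 had 14, 12 and 9 reads in NC and 16, 0 and 0 with TNF-α, and PCDHA7 had 10 reads in all 6 libraries. Differences in single alpha genes were not detectable at this depth. Each gamma gene shares at least 2181 bases and each alpha gene at least 2866 bases of exon with other genes on the same strand. Exon shared on that strand made up 27.6% to 64.4% of the exonic length of a gamma gene and 21.3% to 56.6% of an alpha gene. Reads in them were not counted for every member, since PCDHGB5 had 24 reads in all 6 libraries and PCDHGC3 15167. The split between members of these 2 arrays is therefore uncertain. The files do not state whether counting used strand.

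Gene length was examined beside the changes because TNF-α replicates 2 and 3 had few reads in long genes. The medians of log2 ratios below cover only genes that passed the filter in all 6 libraries. This is because low TNF-α values are built into the 8 members that passed through NC. Over all such genes with more than 8 kb of exon, the median log2 ratio to the NC mean was 0.01, -0.50 and -0.46 in TNF-α replicates 1 to 3. For the 5 members of this length, CDH11, CDH13, PCDH7, PCDH10 and PCDH17, it was -0.09, -1.23 and -1.02. At 4 to 6 kb it was 0.00, 0.12 and 0.08 over all such genes and -0.03, -0.53 and -0.28 over 4 members, CDH2, PCDHB9, PCDHB14 and PCDHGC3. In replicates 2 and 3 the medians of these few members were below those of all such genes in both classes, and the difference was not tested. The only member at 2 to 4 kb was CDH24, with -0.42, 0.11 and 0.01 beside -0.02, 0.61 and 0.50 over all such genes. The median exonic length was 4976 bases over the tested members and 4638 over all genes tested. Across the 20 tested members, Spearman's rho between the log2 ratio and length was 0.35, -0.09 and -0.21 in replicates 1 to 3, where the points share the library. These 20 include PCDH1 and the 8 members that passed through NC. The rho values therefore depend in part on the filter, and no relation to length is drawn from them. The part of RNA quality or library preparation in these values was not tested.

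**Figure D5:**
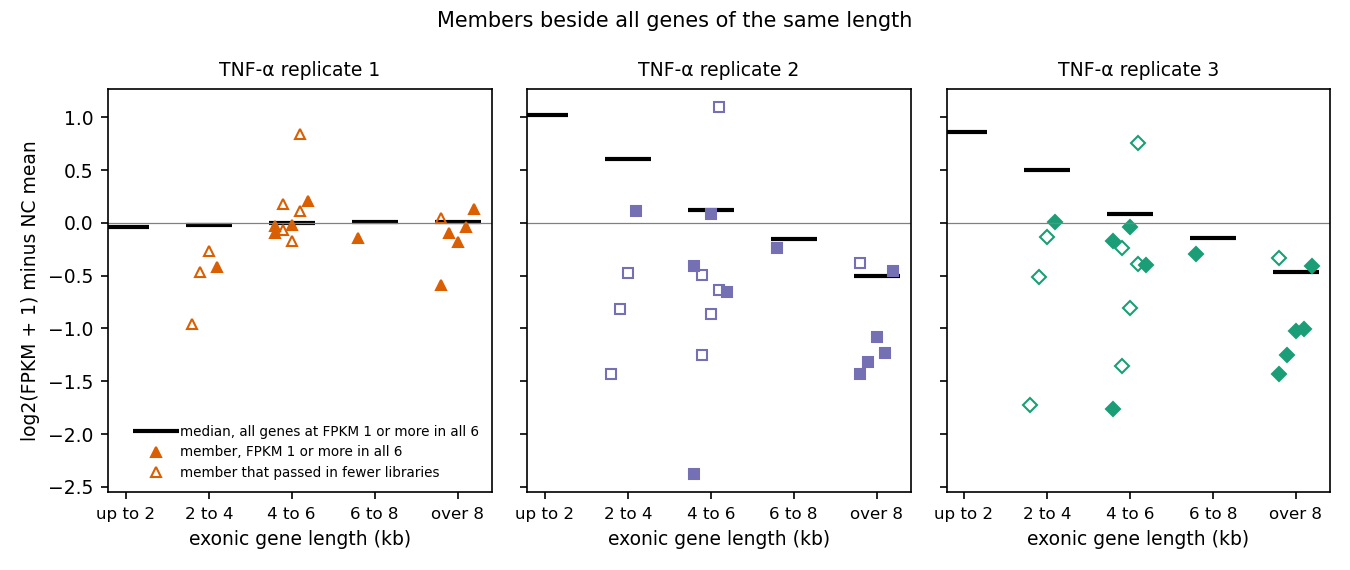
Difference of log2(FPKM + 1) from the NC mean for each tested member, by exonic gene length, in the 3 TNF-α libraries. Filled symbols are the 11 members with an FPKM of 1 or more in all 6 libraries, open symbols the 9 that passed in fewer, and black bars the medians of all genes with an FPKM of 1 or more in all 6. Among the filled symbols over 8 kb, CDH13 lies just above the bar in replicates 2 and 3 and the other 4 lie below it.

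The tests depended strongly on which TNF-α libraries were used. With replicate 1 alone against the 3 NC libraries, 4 of 20 members were called (CDH10, PCDH10 and CDH24 lower, PCDH1 higher), beside 6.03% of all genes tested. With replicates 2 and 3 alone, 17 members were called, 1 higher and 16 lower, beside 79.4% of all genes, 42.6% higher and 36.8% lower. Of the 16, CDH10, CDH6, PCDHB2, PCDHB10, PCDHB16, PCDHGA9 and PCDHGB2 had passed the filter through NC. Low TNF-α values are thus built into them, and PCDH1 had passed through TNF-α. The split by direction therefore follows in part from the filter. This limit holds for CDH10 and PCDH1 in every count of this paragraph. With all libraries and a correction for GC content and gene length, CDH10 and PCDH10 were called beside 2.04% of all genes, and with a correction for length alone PCDH1 was called beside 1.26%.

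Genes that act with cadherins were examined in 6 lists of 122 genes, of which 84 were tested. In limma, 0 of the 84 passed the threshold, beside 1.01% of all genes tested. In limma-voom on reads, 100 list genes were tested and 0 were called, beside 0.751% of 16638 genes. An unadjusted p under 0.05 (limma) was found for 23 of the 84, beside 2942 of the 12136 genes tested. The log2 fold change was above 0 for 17 of the 84, beside 6432 of the 12136. Its median was -0.31 over the 84 and 0.04 over all genes tested. The median was -0.45 over 18 catenins and junction linkers, -0.64 over 8 other members of the cadherin superfamily, -0.30 over 7 transcription factors that regulate cadherins, -0.05 over 16 proteases that cleave cadherins, -0.63 over 19 genes that control the clustered promoters, and -0.29 over 16 partners of protocadherin tails. In the same order, 3, 1, 0, 7, 0 and 6 genes had a value above 0. These counts and medians cover genes that passed the filter in any 3 libraries. Some passed through NC, among them FAT4 and CELSR3 of the 8 superfamily genes, so low TNF-α values are built into them. The values were not computed for list genes that passed in all 6 libraries.

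The catenins had high levels. CTNNB1 (β-catenin), which binds classical cadherin tails, had 41.2, 39.8 and 42.6 FPKM in NC and 42.8, 23.6 and 25.8 FPKM with TNF-α. CTNNA1 (α-catenin), which links β-catenin to actin, had 48.5, 48.4 and 52.6 FPKM in NC and 56.2, 47.0 and 49.9 FPKM with TNF-α. CTNND1 (p120-catenin), which stabilises cadherins at the membrane, had 25.1, 24.3 and 24.7 FPKM in NC and 26.3, 12.7 and 13.8 FPKM with TNF-α. All 3 were highest in TNF-α replicate 1, and their log2 fold changes of -0.46, 0.03 and -0.54 did not pass (adjusted p 0.208, 0.871 and 0.204, limma).

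Of the regulators, ZEB1, a repressor of CDH1, had 5.62, 5.47 and 5.37 FPKM in NC and 7.001, 1.78 and 1.70 FPKM with TNF-α, and SNAI2, another, had 3.53, 3.14 and 3.62 FPKM in NC and 4.16, 1.97 and 2.65 FPKM with TNF-α. Both were above NC in replicate 1 and below it in replicates 2 and 3. CTCF, the insulator protein at clustered promoters, had 11.7, 11.1 and 11.1 FPKM in NC and 11.3, 7.19 and 7.23 FPKM with TNF-α. SMCHD1, a chromatin protein that silences clustered protocadherins, had 15.2, 16.0 and 15.8 FPKM in NC and 15.9, 4.47 and 5.31 FPKM with TNF-α. ADAM10, the protease that sheds CDH2 and gamma protocadherins, had 8.20, 8.42 and 7.97 FPKM in NC and 8.38, 3.34 and 3.41 FPKM with TNF-α. For these 3 genes replicate 1 lay within the NC range (log2 fold changes -0.39, -0.99 and -0.70, adjusted p 0.197, 0.195 and 0.195, limma).

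With replicate 1 as the only TNF-α library, 4 of the 84 list genes (4.76%) were called, beside 6.03% of all genes tested, and they are named after their values were seen. CELSR2, an atypical cadherin of planar polarity, had 7.29 to 7.83 FPKM in NC and 4.75, 2.14 and 2.18 FPKM with TNF-α. PLEKHA7, a junction linker, had 3.81 to 4.38 FPKM in NC and 2.52, 0.941 and 1.29 FPKM with TNF-α. MMP14, a membrane protease, had 48.2 to 53.8 FPKM in NC and 75.1, 96.4 and 94.4 FPKM with TNF-α. These 3 kept their direction in all TNF-α libraries. CTNNBIP1, an inhibitor of β-catenin, did not, with 3.58 to 3.88 FPKM in NC and 2.48, 5.35 and 4.81 FPKM with TNF-α.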

How the data were processed

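RNA was extracted from U251 cells of the NC and TNF-α groups, and libraries were made after poly(A) selection. Tools named in the submitters' processing notes are HISAT2 2.0.5, StringTie 1.3.3b and featureCounts 1.5.0, without a stated role in these values. The authors deposited FPKM per gene and library, computed on a scaled library total, together with gene lengths. The table matched all 58735 genes of GENCODE 29 (GRCh38) in length, start and end. Its 6 further columns of per-sample values match no sample described here and were not used. Whole reads were recovered from FPKM and length for 100% of values, within 0.01 of a whole number.

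Groups and replicates came from sample titles. Genes reaching FPKM 1 in 3 or more of the 6 libraries were tested on log2(FPKM + 1) with limma 3.58.1 in R 4.3.3 (eBayes with trend, two-sided), Benjamini-Hochberg adjusted over the 12136 genes tested, with a threshold of 0.05. Fold changes on this scale understate changes of low genes. The procedure was tested on simulated data. The alternatives were other pseudocounts, filters and scalings, limma-voom on reads (at least 10 reads in 3 libraries), a replicate block, corrections by splines (5 degrees of freedom) for gene length or for GC and length, and leaving out libraries. For summed clusters, CPM and left-out libraries were added after the data had been seen. So were the counts restricted to genes reaching FPKM 1 in all 6 libraries and the NC levels of single genes per unshared exon length. The members and lists were chosen with earlier results of these data known. Named genes were all tested members, CDH1, CDH5, the 3 highest genes of each cluster, 8 list genes taken whatever their result, and the called list genes with the largest changes. Promoters were taken from RefSeq. The software was Python 3.11.15 with matplotlib 3.10.9, pandas 2.3.3 and numpy 2.4.6.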

Additional observations from a re-analysis of the deposited data

How the results depend on the processing

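The calls of single members were fragile, and their directions less so. CDH10 lost its call under 16 and PCDH1 under 14 of 20 alternatives, and neither changed sign (log2 fold changes -2.17 to -0.96 and 0.63 to 1.46, adjusted p 1.77e-05 to 0.321 and 0.000302 to 0.362, limma). The count of 2 called members became 0 with a pseudocount of 0.1, with every gene above 0, with an FPKM of at least 0.1 in 3 libraries, with a mean FPKM of at least 0.5, with TPM, with median centring, without a trend and with the replicate block, 1 with a pseudocount of 0.5, with limma-voom and with the gene length correction, and 4 without TNF-α replicates 2 and 3. It was 0 to 17 when single libraries were left out, 17 without TNF-α replicate 1. The 123 called genes of all became 58 with every gene above 0, 58 with TPM, 185 with quantile normalization, 24 with the replicate block, 732 without TNF-α replicates 2 and 3, 247 with the GC and length correction, and 10 to 9630 when single libraries were left out. The 0 called list genes became 4 without TNF-α replicates 2 and 3, 1 with the length correction (CELSR2, -0.79) and 0 to 72 when single libraries were left out.

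Signs changed as follows, with log2 fold changes. Without TNF-α replicates 2 and 3 they were 0.20 for CDH2, 0.13 for CDH13, -0.021 for PCDHB9, 0.11 for PCDHB2, 0.18 for PCDHB16, 0.049 for CDH6, 0.056 for CTNNB1, 0.088 for CTNND1, 0.024 for SMCHD1, 0.22 for SNAI2, 0.30 for ZEB1 and 0.028 for ADAM10. They were 0.083 for CDH13, -0.13 for PCDHB9 and 0.14 for CDH6 with the length correction, and 0.18, -0.045 and 0.24 with GC and length. With TPM the median over all tested genes was -0.42, and the values were -0.43 for PCDHB9 and -0.47 for CTNNA1, which is near that shift. CTNNA1 was -0.38 after quantile normalization, and PCDHB9 and CTNNA1 were -0.039 and -0.016 after median centring. PCDHB9 was -0.0059 in limma-voom. Leaving out single libraries gave -0.20 to 0.060 for CDH24, -0.036 to 0.056 for PCDHB9 and -0.040 to 0.087 for CTNNA1. The cause was not tested. No pairing by replicate number was seen. Deviations from the group means correlated at -0.0144, -0.178 and 0.124 for numbers 1 to 3, and not every sample correlated best with its own number. With 3 libraries per group, and TNF-α replicate 1 apart from replicates 2 and 3, these correlations cannot exclude pairing.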
